A study of Mus musculus with 12 samples.

Results

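The genes described are 44 genes of mitosis and of the mitotic spindle, taken by name from a fixed list. A probe set of the array belongs to a gene when it carries that gene's symbol and no other. By this rule 41 of the 44 genes were measured, among 12393 genes with a symbol of their own on the array, through 77 of the 22626 probe sets tested, while Ccnb1, Cdca8 and Espl1 were not analysed here. Where a gene had several probe sets, the one with the highest mean over all tumors stands for the gene in counts and medians, and the others are given where they differ.

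In mitosis a spindle of microtubules attaches to each chromosome at its kinetochore and draws the sister chromatids apart. Cyclin B with Cdk1 starts the process, the spindle checkpoint delays anaphase while any kinetochore is unattached, and the anaphase-promoting complex with Cdc20 then marks cyclin B and securin for destruction. Most of these genes are transcribed together late in the cell cycle by MuvB, B-Myb and FoxM1. Active p53 induces the CDK inhibitor p21 (Cdkn1a), after which the DREAM complex, which holds the same MuvB core, represses many of them through DNA elements called CHR.

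Expression was measured in salivary tumors of adult mice of 3 genotypes, 4 tumors each, with 1 Affymetrix mouse expression array per tumor. MT tumors came from MMTV-ras/p53R172H/R172H mice, homozygous for a knock-in missense mutation of p53. KO tumors came from MMTV-ras/p53-/- mice, which lack p53, and WT tumors from MMTV-ras/p53+/+ mice, with wild-type p53. By the study's methods, KO and WT mice had long been kept on a mixed background. MT mice came from a colony founded by crossing knock-in mice of another background to such mice. In the study's male mice the median tumor onset was earliest in KO, later in MT and latest in WT. Colony and age at onset thus went with genotype, and their part in the levels was not tested. All 12 tumors carried the Hras transgene, which the MMTV promoter drives in mammary and salivary epithelium, and none was treated. Tumors are numbered 1 to 4 within a genotype (MT1 to MT4, KO1 to KO4, WT1 to WT4). No source used here states that each tumor came from its own mouse. The p-values therefore reflect variation among these tumors and no more. RNA came from frozen tumor sections, so each value is an average over tumor, stromal and immune cells, and fewer cells of a type cannot be told apart from less RNA per cell. By the study's methods, small tumors with growth rates like most of their genotype were chosen. Their sections had to be mostly homogeneous tumor without extensive necrosis. The part of this choice in the levels was not tested. Values are log2 expression levels, where a difference of 1 is a doubling, and they are compared between tumors for a given probe set and not between probe sets.

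The labels were checked with Trp53, which encodes p53. At probe set 1426538_a_at, which a supplementary list of the study assigns to Trp53, its log2 level was 8.80, 9.03, 8.82 and 7.88 in MT1 to MT4, 5.85, 6.33, 6.24 and 6.36 in KO1 to KO4 and 7.89, 7.38, 8.01 and 8.01 in WT1 to WT4, so that KO tumors lay below all others. Cdkn1a was 6.43, 7.64, 6.66 and 6.71 in MT tumors, 7.01, 6.62, 6.68 and 7.20 in KO tumors and 7.73, 8.82, 8.55 and 8.22 in WT tumors at probe set 1424638_at, and it was lower in KO than in WT tumors, with a KO minus WT difference of -1.45 ± 0.29 (SE; adjusted p = 0.0214, limma). Its second probe set, 1421679_a_at, gave -1.07 ± 0.32 (adjusted p = 0.077, limma) and did not pass, with WT1 (6.34) below KO4 (6.49). The luminal genes Epcam, Krt8, Krt18 and Cdh1, which mark the secretory and ductal epithelium, were between 10.17 and 13.04 in the 12 tumors. Poly-A control transcripts, which are added before labeling, averaged 10.38 to 10.56 in the tumors MT1 to MT3, against 3.98 to 4.23 in MT4 and the 8 KO and WT tumors. The 18S ribosomal RNA control averaged 6.41 to 6.59 in MT1 to MT3, 7.66 in MT4, 7.36 to 8.03 in KO and 7.51 to 9.33 in WT tumors. No source names what parts MT1 to MT3 from the other tumors, and MT values are therefore also given with MT4 alone, the MT tumor whose poly-A controls were at the level of the KO and WT tumors. WT1 stood apart by its lymphocyte genes. The mean centered level (log2 level minus the 12-tumor mean of the gene) of 5 B and plasma cell genes was 4.34 in WT1 and -0.55 to -0.26 in the other 11 tumors, and that of 5 T and NK cell genes was 1.64 in WT1 and -0.40 to 0.06 in the others.

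The 41 genes varied widely among tumors of 1 genotype. Their mean centered level, averaged over the genes, was 0.12, -0.57, -0.11 and -0.06 in MT1 to MT4. It was 0.19, 0.23, 0.44 and 0.21 in KO1 to KO4, and 0.27, -0.46, 0.05 and -0.30 in WT1 to WT4. The KO tumors were close to one another and all lay above the 4 MT tumors, whereas WT1 lay among the KO tumors and MT2, WT2 and WT4 lay lowest. No test is given for this average, since the genes were chosen with earlier results of these data known.

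**Figure D1:**
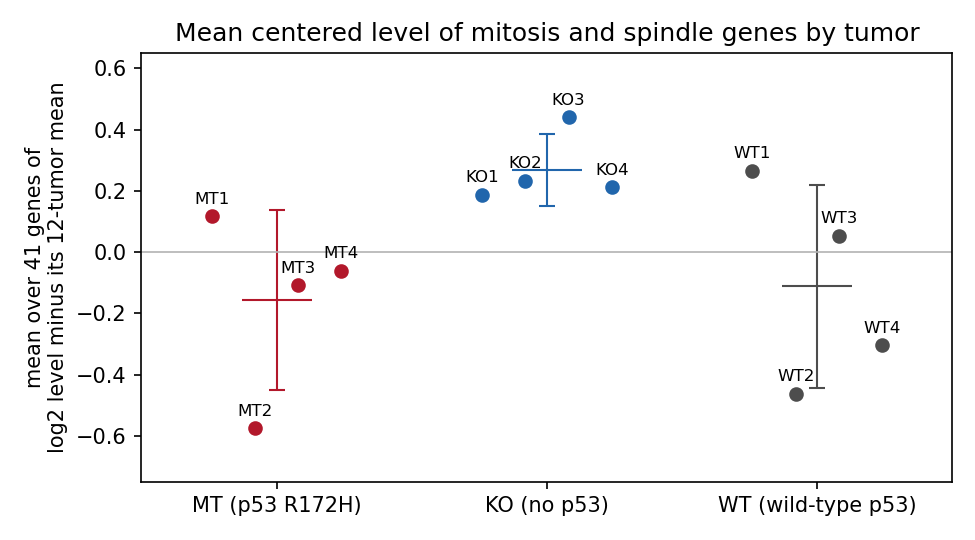
Mean over the 41 genes of the log2 level minus its 12-tumor mean (vertical axis, log2), for each MT, KO and WT tumor (dots, 4 per genotype), with the mean and SD of each genotype (bar and whiskers). KO tumors lie between 0.19 and 0.44, MT tumors between -0.57 and 0.12, and WT tumors span -0.46 to 0.27.

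Single tumors carried much of this spread. MT2 had the lowest value of the 12 tumors in 18 of the 41 genes and the lowest of the 4 MT tumors in 33. WT2 was lowest of the 12 in 13 genes, so that either MT2 or WT2 was lowest in 31 of 41. KO3 was highest of the 12 in 12 genes, and a KO tumor was highest in 28 of 41. WT1, the tumor with lymphocyte genes, was the highest of the 4 WT tumors in 32 of 41 genes, and the part of those cells in its levels was not tested. The median SD within genotypes was 0.38 over these genes, against 0.27 over all 22626 probe sets, and their median range over the 12 tumors was 1.43, against 1.02. The SD within genotypes exceeded the size of the KO minus WT difference in 21 of 41 genes (51.2%), against 55.4% of all probe sets.

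**Figure D2:**
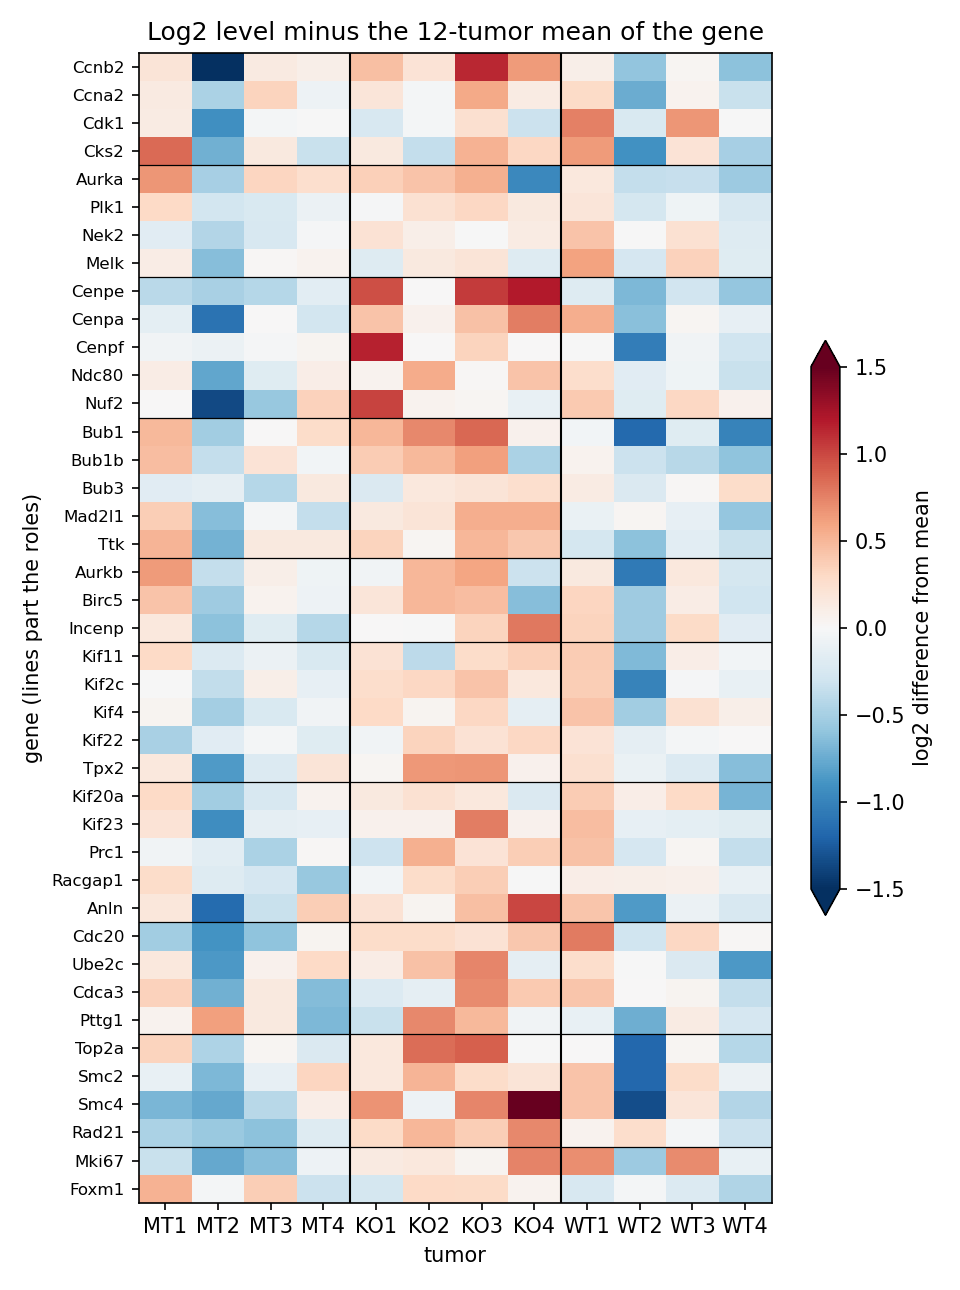
Log2 level minus the 12-tumor mean of the gene (color) for 41 genes (rows, grouped by role) in the MT, KO and WT tumors (columns). MT2 and WT2 are below the mean in most rows, 40 of 41 for MT2 and 36 of 41 for WT2, and KO3 is above it in all rows but 1.

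Between genotypes, KO tumors had the highest of the 3 means in 36 of 41 genes. The comparisons of MT with KO and of KO with WT share the KO tumors, so their counts are not independent. The genes also rose and fell together by tumor, MT2 being below the 12-tumor mean in 40 of 41 and WT2 in 36. A count of genes is therefore not a count of independent results. In MT against KO tumors 39 genes had a lower and 2 a higher mean in MT (the mean was higher in MT for 53.4% of all probe sets), with a median difference of -0.39 against 0.02 over all probe sets. None of the 41 passed limma's test at an adjusted p under 0.05, adjusted over all 22626 probe sets, by which 0.00884% of probe sets passed, and both of those are assigned to Trp53. At an unadjusted p under 0.05 there were 11 genes, all lower in MT (26.8%, against 9.58% of all probe sets), and MT and KO values did not overlap in 8 genes (19.5%, against 4.85%). With MT4 alone as the MT tumor, 34 genes had a lower mean in MT and 7 a higher one, with a median of -0.29 against -0.01 over all probe sets, and none passed. Without MT2, the low MT tumor, the median moved to -0.26, with 34 genes lower and 7 higher in MT.

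Markers of other cells and RNA controls differed between MT and KO tumors too. All 5 T and NK cell genes had higher means in MT, 2 of them without overlap, and their mean centered level was -0.15 to -0.07 in MT and -0.40 to -0.10 in KO tumors. All 5 endothelial genes had higher means in MT (-0.08 to 0.17 in MT and -0.48 to 0.05 in KO tumors), and 5 of 6 luminal genes had lower means in MT (-0.37 to 0.37 in MT and 0.12 to 0.37 in KO tumors). All 4 skeletal muscle genes had higher means in MT, where MT1 stood alone. Their mean centered level was 1.16 in MT1, -0.25, -0.16 and -0.23 in MT2 to MT4 and -0.26 to -0.15 in KO tumors. None of these genes passed, and none was under an unadjusted p of 0.05. Of 6 salivary acinar genes 3 had higher and 3 lower means in MT, with a lowest MT minus KO difference of -2.76. Of the lower acinar genes 1 was under an unadjusted p of 0.05, and none passed. The 3′ minus 5′ difference of the beta-actin control was 0.17 to 0.40 in MT and 0.36 to 1.05 in KO tumors, and 18S was lower in MT1 to MT3 than in every KO tumor. The part of these cells and of RNA quality in the MT minus KO differences of the mitotic genes was not tested.

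In MT against WT tumors the genes lay on both sides. The mean was higher in MT for 18 genes and lower for 23 (48.8% of all probe sets were higher), the median difference was -0.05 against -0.01 over all probe sets, and it was 0.03 with MT4 alone. No gene passed the adjusted test, by which 0.367% of all probe sets passed. At an unadjusted p there were 5 genes (12.2%, against 19.4%), and MT and WT values did not overlap in 0 genes, against 10.9% of all probe sets. Leaving out WT1 alone turned this median to 0.09, with 26 genes higher in MT, and leaving out WT2 alone gave -0.18 with 12 higher. Markers of other cells differed here too. All 6 luminal genes had higher and all 6 basal and myoepithelial genes lower means in MT. Of 6 salivary acinar genes 4 had lower and 2 higher means in MT, with a median MT minus WT difference of -1.75. None of these markers passed, and their part in the mitotic genes was not tested.

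In KO against WT tumors 38 of 41 genes had a higher mean in KO (47.4% of all probe sets did), and the exceptions were Cdk1, Melk and Nek2. The median difference was 0.35, against -0.02 over all probe sets, and the median SE of a gene was 0.25. A single gene, Cenpe, passed the adjusted test, which is 2.44% of the genes against 4.57% of all probe sets. Likewise 9 genes at an unadjusted p under 0.05 (22%, against 23.9%) and 7 genes whose KO and WT values did not overlap (17.1%, against 14.5%) are shares close to those of all probe sets, so the calls do not set these genes apart while the direction of the means was shared. Without WT1, chosen for omission after its lymphocyte genes were seen, 40 of 41 genes had a higher mean in KO, the median difference was 0.49, and KO values lay above the 3 remaining WT values in 14 genes (34.1%, against 17.3% of all probe sets without overlap in either direction). Without WT2, the low WT tumor, the median was 0.21 with 32 genes higher.

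Markers of other cells differed between KO and WT tumors as well. All 6 luminal epithelial genes had higher means in KO, with none passing, and their mean centered level was 0.12 to 0.37 in KO tumors and -1.11 to 0.18 in WT tumors. Of 6 macrophage genes 5 had lower means in KO, and Cd68 (KO minus WT -0.91 ± 0.23 SE, adjusted p = 0.0483, limma) and Lyz2 (-1.38 ± 0.32, adjusted p = 0.0357) passed, with the macrophage mean centered level at -0.54 to 0.30 in KO and -0.22 to 0.61 in WT tumors. The remaining macrophage gene ran the other way, by 2.13, the largest difference of that list in size. It was under an unadjusted p of 0.05 and did not pass. All 5 endothelial genes had lower means in KO, and Pecam1 and Emcn passed. Of 6 salivary acinar genes 4 had lower means in KO, with a lowest KO minus WT difference of -4.2, and Dcpp1 passed. The median difference of the 6 was -1.44. Their mean centered level was -1.33 to 0.28 in KO and 0.07 to 1.81 in WT tumors. The 2 other acinar genes had higher means in KO, by up to 1.57. Of these, 1 was under an unadjusted p of 0.05 and none passed. The part of these cell types in the levels of the mitotic genes was not tested.

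**Figure D3:**
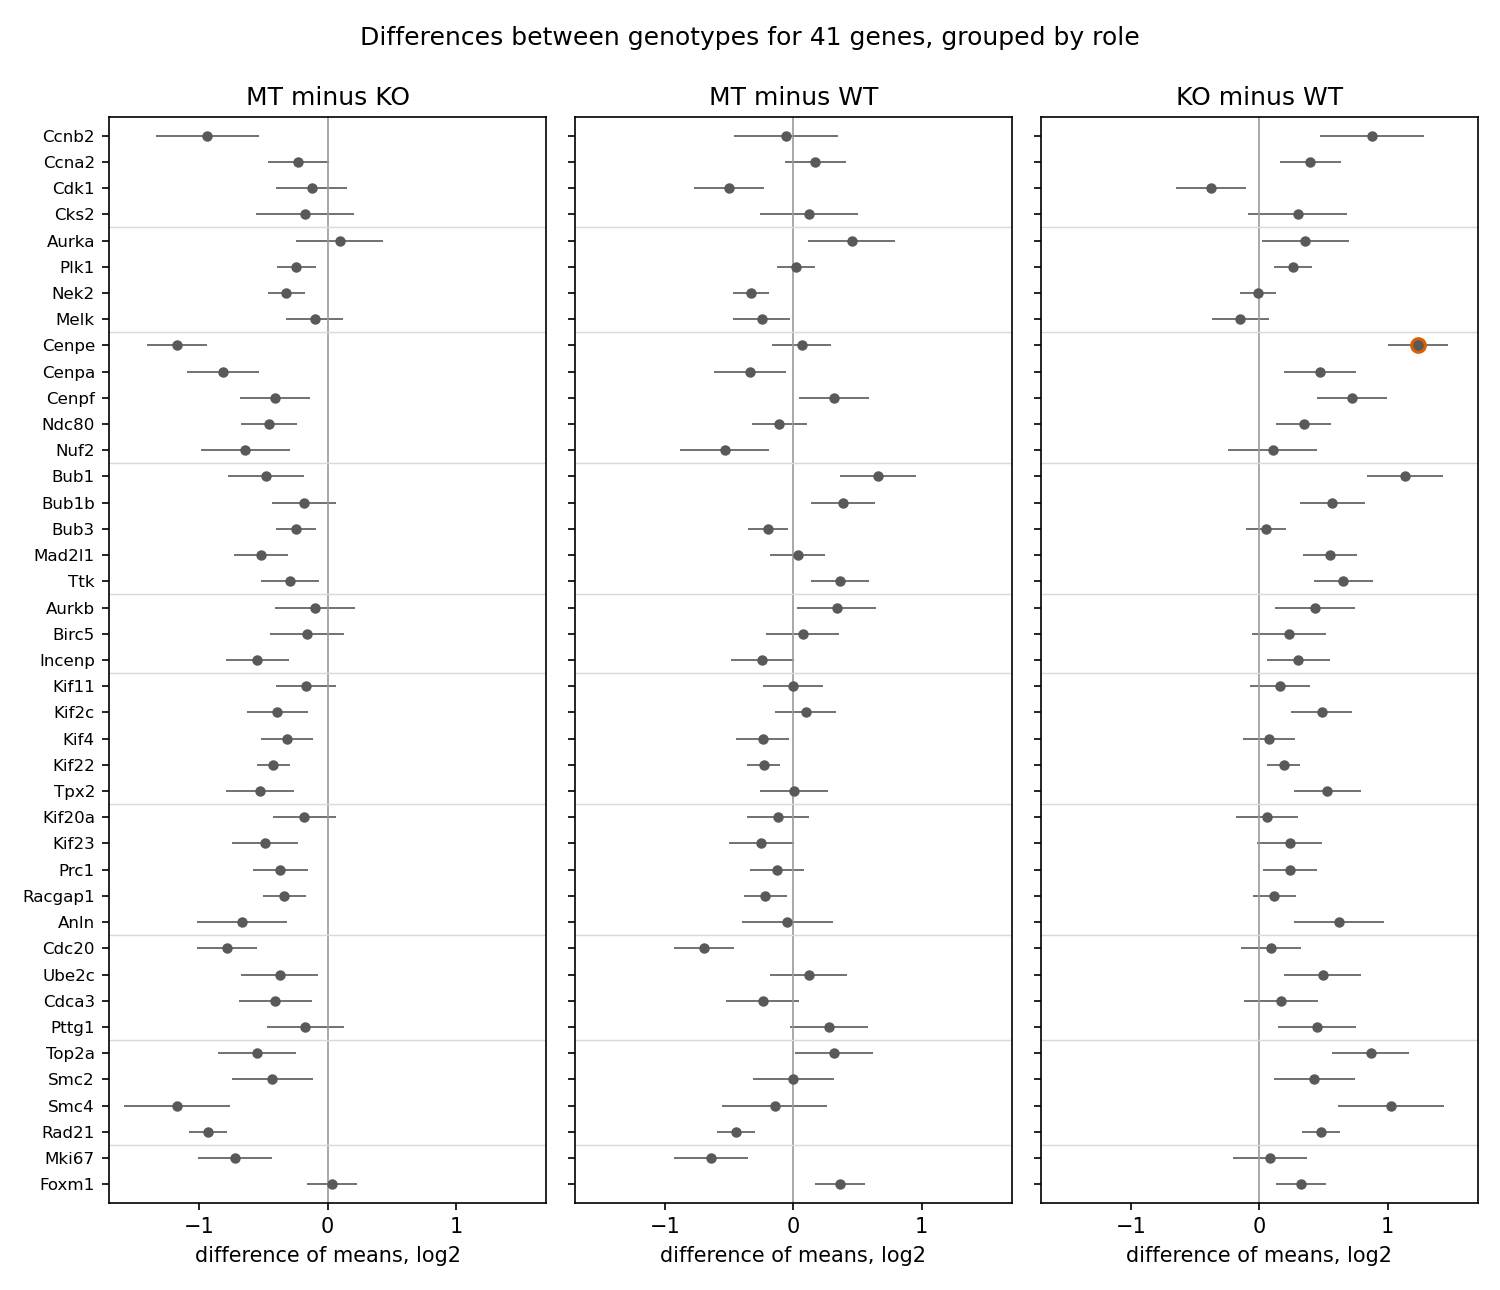
Differences of means on the log2 scale with SE (dots and bars) for 41 genes (rows, grouped by role with lines between roles) in MT minus KO, MT minus WT and KO minus WT. Cenpe (orange) is the gene that passed limma's adjusted test, at 1.24 in KO minus WT, where 38 of 41 dots lie right of 0, while 39 of 41 lie left of 0 in MT minus KO.

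The promoters of these genes shared sequence features that their choice did not use. RefSeq promoter windows (GRCm38.p6, 250 bases before to 50 bases after the start) matched 36 of the 44 genes by symbol, and the first listed window of a gene was counted. The windows were searched on both strands for CCAAT (or ATTGG), the box bound by NF-Y, and for the CHR element as TTTGAA (or TTCAAA) and as TTCGAA, with overlapping matches each counted. CCAAT was in 28 of 36 genes (77.8%), against 37.9% of the 27025 genes with a window, and at least 2 copies were in 19 (52.8%, against 12.2%). TTTGAA was in 26 (72.2%, against 18.1%) and TTCGAA in 3 (8.33%, against 1.57%). A CCAAT together with either CHR form was in 24 genes (66.7%), against 7.7%. These are matches of letters and not measured binding.

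**Figure D4:**
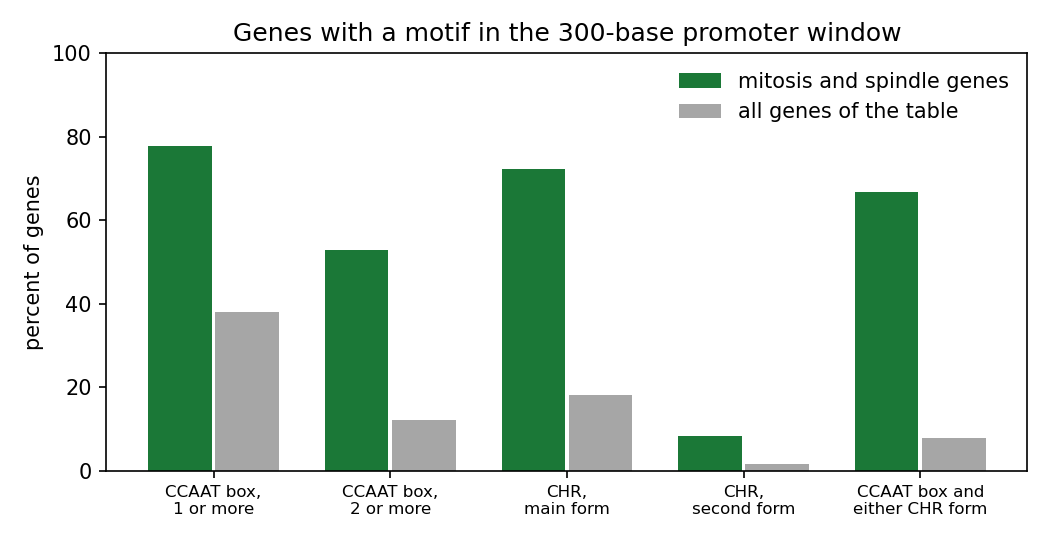
Percent of genes (vertical axis) whose 300-base promoter window holds a CCAAT box, at least 2 of them, a CHR element in its main form (TTTGAA) or second form (TTCGAA), or a CCAAT box with either CHR form, for the 36 matched mitosis and spindle genes (green) and the 27025 genes with a window (gray). The green bar is the higher in each pair, from 8.33% against 1.57% for the second CHR form to 77.8% against 37.9% for the CCAAT box.

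Windows of 4 genes are shown because the results turn on them: Cenpe, the gene that passed, Bub1, which had the next largest KO minus WT difference, and Ccnb2 and Cdk1, whose proteins can act as partners and whose KO minus WT differences had opposite signs. Each runs 5′ to 3′ on the strand of the gene, with the CCAAT and CHR letters of either strand in capitals. Cenpe is at chr3:135212313-135212612 on the plus strand, Bub1 at chr2:127831810-127832109, Ccnb2 at chr9:70421505-70421804 and Cdk1 at chr10:69352863-69353162, all 3 on the minus strand.
Cenpe: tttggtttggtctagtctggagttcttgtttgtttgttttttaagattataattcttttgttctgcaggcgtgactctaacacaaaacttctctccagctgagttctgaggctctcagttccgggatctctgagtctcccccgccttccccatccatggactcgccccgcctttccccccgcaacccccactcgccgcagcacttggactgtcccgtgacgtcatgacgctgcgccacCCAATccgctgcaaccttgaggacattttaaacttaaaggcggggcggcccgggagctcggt
Bub1: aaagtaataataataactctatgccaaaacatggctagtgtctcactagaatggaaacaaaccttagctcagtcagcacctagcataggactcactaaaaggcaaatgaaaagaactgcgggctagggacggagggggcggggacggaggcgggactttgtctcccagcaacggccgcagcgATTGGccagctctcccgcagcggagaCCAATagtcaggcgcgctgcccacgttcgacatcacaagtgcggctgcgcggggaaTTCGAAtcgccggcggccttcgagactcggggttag
Ccnb2: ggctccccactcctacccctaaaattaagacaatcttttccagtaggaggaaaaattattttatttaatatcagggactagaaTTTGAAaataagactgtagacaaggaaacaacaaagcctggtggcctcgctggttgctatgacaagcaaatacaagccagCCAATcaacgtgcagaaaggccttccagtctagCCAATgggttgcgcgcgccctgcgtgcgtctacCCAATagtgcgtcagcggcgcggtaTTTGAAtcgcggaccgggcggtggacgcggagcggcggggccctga
Cdk1: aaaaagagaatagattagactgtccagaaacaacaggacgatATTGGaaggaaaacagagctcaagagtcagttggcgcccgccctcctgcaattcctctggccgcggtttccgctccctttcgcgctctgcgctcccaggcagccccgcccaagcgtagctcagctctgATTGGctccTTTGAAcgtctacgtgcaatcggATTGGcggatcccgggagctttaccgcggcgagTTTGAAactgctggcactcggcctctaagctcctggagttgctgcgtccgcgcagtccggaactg
The window of Cenpe holds 1 CCAAT and neither CHR form, that of Bub1 holds 2 CCAAT and 1 TTCGAA, and those of Ccnb2 and Cdk1 hold 3 CCAAT and 2 TTTGAA each.

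Among cyclins, Cdk1 and their helpers, 4 genes were measured and none passed the test in any comparison. Ccnb2 encodes a B-type cyclin that activates Cdk1. Its log2 level was 9.06, 7.11, 9.00 and 8.95 in MT tumors, 9.31, 9.06, 10.00 and 9.50 in KO tumors and 8.94, 8.27, 8.90 and 8.24 in WT tumors. KO values lay above all MT and all WT values, narrowly over MT1, and MT2 lay far below every other tumor. The MT minus KO difference was -0.94 ± 0.40 (SE; adjusted p = 0.489, limma; -0.51 with MT4 alone) and the KO minus WT difference was 0.88 ± 0.40 (adjusted p = 0.212).

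Cdk1, the kinase that drives entry into mitosis, ran the other way between KO and WT. It was 9.12, 8.07, 8.96 and 8.99 in MT, 8.75, 8.97, 9.24 and 8.68 in KO and 9.75, 8.77, 9.65 and 8.98 in WT tumors. WT1 and WT3 were the highest and MT2 the lowest, and the KO and WT ranges overlapped. The difference in KO minus WT was -0.38 ± 0.27 (adjusted p = 0.430, limma) and MT minus WT was -0.50 ± 0.27 (adjusted p = 0.338; -0.30 with MT4 alone). Cks2, a small subunit that binds Cdk1, had the smallest KO minus WT difference of its role in size, 0.30 ± 0.38 (adjusted p = 0.678), with 10.10, 8.53, 9.40 and 8.93 in MT, 9.41, 8.90, 9.78 and 9.56 in KO and 9.89, 8.35, 9.46 and 8.76 in WT tumors. In each genotype its values spanned more than that difference. Ccna2, cyclin A, had a difference of 0.40 in KO minus WT and -0.23 in MT minus KO.

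Of the 4 mitotic kinases Aurka, Plk1, Nek2 and Melk, none passed, and their KO minus WT differences fell on both sides of 0. Aurka, Aurora A, which works at the spindle poles, was 8.54, 7.37, 8.20 and 8.12 in MT, 8.23, 8.30, 8.41 and 6.91 in KO and 8.03, 7.52, 7.54 and 7.33 in WT tumors. KO1 to KO3 lay above all WT tumors and KO4 below all 11 others, and KO4 also had the largest 3′ minus 5′ difference of its beta-actin control probe sets, 1.05 against 0.17 to 0.58 in the other tumors, whose part in this value was not tested. The difference in KO minus WT was 0.36 ± 0.34 (adjusted p = 0.554, limma). Nek2, a centrosome kinase, was 6.09, 5.82, 6.02 and 6.25 in MT, 6.48, 6.35, 6.25 and 6.38 in KO and 6.69, 6.26, 6.49 and 6.07 in WT tumors. KO and WT tumors had nearly the same mean (KO minus WT -0.01 ± 0.14), and all MT tumors lay below all KO tumors, narrowly for MT4, with MT minus KO at -0.32 ± 0.14 (adjusted p = 0.500; -0.12 with MT4 alone). Plk1, the Polo kinase, had 0.26 in KO minus WT, and Melk -0.15.

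The 5 kinetochore and centromere genes all had higher means in KO than in WT and lower means in MT than in KO. Cenpe encodes the kinesin that carries chromosomes to the spindle equator, and it lies on chromosome 3. At probe set 1439040_at, its only one, it was 4.74, 4.66, 4.72 and 4.99 in MT tumors, 6.12, 5.15, 6.19 and 6.34 in KO tumors and 4.96, 4.47, 4.86 and 4.57 in WT tumors. All 4 KO tumors lay above all MT and WT tumors, KO2 by the least. Cenpe rose in KO against WT by 1.24 ± 0.23 (SE; adjusted p = 0.0196, limma). MT minus KO was -1.17 ± 0.23 (adjusted p = 0.150; -0.96 with MT4 alone), and it passed once KO2 was left out (-1.44, adjusted p = 0.0256). The KO against WT call was lost in a fit to those 8 tumors (adjusted p = 0.0564), without WT3 (0.0543) and without KO3 (0.0511), and a filter on dim probe sets removed the gene. Cenpe is in a table that the study chose on these tumors, so it is not independent evidence of the direction of the other genes.

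Nuf2, a subunit of the Ndc80 complex that grips microtubules, was 7.01, 5.65, 6.43 and 7.34 in MT, 8.01, 7.06, 7.03 and 6.89 in KO and 7.40, 6.82, 7.30 and 7.06 in WT tumors. KO1 stood above and MT2 below all others, and the rest overlapped. KO minus WT was 0.10 ± 0.35 (adjusted p = 0.888, limma), the smallest of the role. Cenpa, the centromeric histone, had 0.47, Cenpf had 0.72 with KO and WT values that did not overlap, and Ndc80 had 0.34.

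In the spindle checkpoint all 5 genes had higher means in KO than in WT, 4 of them at an unadjusted p under 0.05 and none at the adjusted threshold. Bub1, a checkpoint kinase at the kinetochore, was 7.91, 6.91, 7.43 and 7.70 in MT, 7.93, 8.14, 8.29 and 7.50 in KO and 7.38, 6.26, 7.25 and 6.43 in WT tumors. The lowest KO tumor, KO4, lay just above the highest WT tumor, WT1, and the MT tumors spread across both. The difference in KO minus WT was 1.14 ± 0.30 (SE; adjusted p = 0.0524, limma) and just missed the threshold, and a second, dimmer probe set gave 0.23. It passed with dim probe sets left out (adjusted p = 0.0465), with a mean-variance trend and robust moderation (0.0488), with a block for the tumor number (0.0469) and without KO4 (0.04998). MT minus WT was 0.66 ± 0.30 (adjusted p = 0.254; 0.87 with MT4 alone).

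Bub3, which carries Bub1 and BubR1 to kinetochores, had the smallest KO minus WT difference of the role, 0.05 ± 0.16 (adjusted p = 0.879, limma), with 10.05, 10.07, 9.78 and 10.36 in MT, 10.00, 10.38, 10.40 and 10.46 in KO and 10.33, 9.99, 10.23 and 10.49 in WT tumors. The 3 ranges overlapped, and its 4 probe sets differed in direction. Mad2l1 (KO minus WT 0.55) and Ttk (0.66), which encode the checkpoint protein Mad2 and the kinase Mps1, had KO values above all WT values, and Bub1b, which encodes BubR1, had 0.57 with KO4 among the WT tumors. Ttk passed with a block for the tumor number only.

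The chromosomal passenger complex, which corrects faulty attachments and steers cytokinesis, had 3 measured genes and none passed. Aurkb, its kinase, was 8.20, 7.21, 7.66 and 7.50 in MT, 7.51, 8.06, 8.15 and 7.24 in KO and 7.71, 6.51, 7.72 and 7.30 in WT tumors, read by a probe set (1424128_x_at) whose probes may match other transcripts. KO1 and KO4 lay among the WT tumors. KO minus WT was 0.43 ± 0.31 (adjusted p = 0.423, limma), and the second probe set gave 0.29. Birc5, survivin, was 8.90, 7.94, 8.51 and 8.39 in MT, 8.65, 8.97, 8.93 and 7.83 in KO and 8.79, 7.93, 8.57 and 8.16 in WT tumors, with KO4 the lowest of the 12. Its KO minus WT difference was 0.23 ± 0.29 (adjusted p = 0.668). Incenp, the scaffold, had 0.30 in KO minus WT and -0.55 in MT minus KO, where its 2 other probe sets gave -0.10 and 0.28.

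The 5 kinesins and spindle assembly genes had means that were higher in KO than in WT and lower in MT than in KO, and none passed. Tpx2, which activates Aurora A and seeds spindle microtubules, was 8.30, 7.29, 7.94 and 8.34 in MT, 8.18, 8.79, 8.80 and 8.21 in KO and 8.38, 8.04, 7.93 and 7.51 in WT tumors. KO2 and KO3 were the highest and MT2 the lowest, while WT1 lay within the KO range. The difference in KO minus WT was 0.53 ± 0.26 (adjusted p = 0.246, limma) and MT minus KO was -0.53 ± 0.26 (adjusted p = 0.561; -0.15 with MT4 alone). Kif4, a chromosome-bound kinesin encoded on the X chromosome, was 6.51, 5.96, 6.24 and 6.41 in MT, 6.77, 6.51, 6.78 and 6.33 in KO and 6.89, 5.94, 6.70 and 6.55 in WT tumors. WT1 was the highest and WT2 the lowest of all 12, and KO minus WT was 0.07 ± 0.20 (adjusted p = 0.859). Kif11, the motor that keeps spindle poles apart, had 0.16 at its main probe set and 0.09 and -0.43 at its 2 others. Kif2c, a microtubule-depolymerizing kinesin, had 0.48, and Kif22, which pushes chromosome arms, had 0.19.

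For the central spindle and cytokinesis, all 5 genes had means that were lowest in MT and highest in KO, and none passed. Anln, anillin of the contractile ring, was 7.88, 6.57, 7.38 and 8.09 in MT, 7.93, 7.76, 8.17 and 8.72 in KO and 8.13, 6.86, 7.63 and 7.48 in WT tumors. KO4 was the highest and MT2 and WT2 were the lowest. KO minus WT was 0.62 ± 0.35 (adjusted p = 0.312, limma) and MT minus KO was -0.67 ± 0.35 (adjusted p = 0.592), but -0.06 with MT4 alone. Kif20a, a kinesin of the central spindle, was 7.33, 6.51, 6.78 and 7.07 in MT, 7.17, 7.26, 7.18 and 6.80 in KO and 7.41, 7.12, 7.32 and 6.32 in WT tumors, with WT1 highest and WT4 lowest and the genotypes overlapping. Its KO minus WT difference was 0.06 ± 0.24 (adjusted p = 0.908). Kif23 (0.24) and Racgap1 (0.12), the subunits of centralspindlin, and Prc1 (0.24), which bundles midzone microtubules, lay between these.

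Among the anaphase genes, Cdc20, the activator of the anaphase-promoting complex, was 9.09, 8.72, 9.01 and 9.66 in MT, 9.89, 9.89, 9.83 and 10.02 in KO and 10.40, 9.32, 9.93 and 9.63 in WT tumors. All MT tumors lay below all KO tumors, and MT1 to MT3 lay below all WT tumors as well, while MT4 did not. MT minus KO was -0.79 ± 0.23 (SE; adjusted p = 0.318, limma), but -0.25 with MT4 alone, the highest MT tumor. The difference in KO minus WT was 0.09 ± 0.23 (adjusted p = 0.852), and the 2 other probe sets gave -0.09 and -0.05. Ube2c, the ubiquitin-conjugating enzyme of the complex, was 10.19, 9.16, 10.10 and 10.33 in MT, 10.14, 10.47, 10.76 and 9.90 in KO and 10.30, 10.03, 9.81 and 9.17 in WT tumors. MT2 and WT4 were nearly equal and the lowest, and KO minus WT was 0.49 ± 0.30 (adjusted p = 0.349). Pttg1, securin, had 0.45, and it was the gene in which MT2 was the highest MT tumor, at 11.27. Cdca3, a trigger of mitotic entry, had 0.17.

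The chromosome structure genes had the largest median difference of any role, 0.67 in KO minus WT and -0.74 in MT minus KO, and none of the 4 passed. Smc4, a condensin subunit, was 8.45, 8.37, 8.72 and 9.24 in MT, 9.81, 9.06, 9.87 and 10.74 in KO and 9.57, 7.80, 9.32 and 8.70 in WT tumors. KO4 was the highest and WT2 the lowest, and WT1 and WT3 lay within the KO range. KO minus WT was 1.02 ± 0.41 (adjusted p = 0.158, limma), MT minus KO was -1.17 ± 0.41 (adjusted p = 0.387; -0.63 with MT4 alone), and its 2 other probe sets gave smaller KO minus WT differences of 0.36 and 0.62. Smc2, its condensin partner, was 8.70, 8.14, 8.69 and 9.13 in MT, 8.96, 9.32, 9.09 and 9.00 in KO and 9.24, 7.63, 9.08 and 8.72 in WT tumors. WT2 stood alone below all others, and KO minus WT was 0.43 ± 0.32 (adjusted p = 0.441).

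Top2a, the topoisomerase that untangles chromatids, was 9.91, 9.11, 9.61 and 9.36 in MT, 9.74, 10.42, 10.48 and 9.56 in KO and 9.59, 8.39, 9.60 and 9.15 in WT tumors. KO2 and KO3 were the highest, KO4 lay just below WT1 and WT3, and WT2 was the lowest. The difference in KO minus WT was 0.87 ± 0.30 (adjusted p = 0.113, limma; -0.25 at a second probe set) and MT minus KO was -0.55 ± 0.30 (adjusted p = 0.609; -0.69 with MT4 alone). Rad21, a cohesin subunit, was chosen for its values after they were seen. It was 10.22, 10.14, 10.08 and 10.50 in MT, 10.98, 11.20, 11.06 and 11.42 in KO and 10.75, 10.95, 10.66 and 10.37 in WT tumors, with all KO tumors above all MT and all WT tumors, narrowly over WT2. MT minus KO was -0.93 ± 0.15 (adjusted p = 0.109, limma; -0.66 with MT4 alone). It passed once MT4 was left out, a setting in which all MT tumors also had high poly-A controls. Its 2 other probe sets gave -1.12 and 0.19 in MT minus KO, so the probe sets of this gene did not share a direction.

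Foxm1 and Mki67 complete the set. Foxm1, the transcription factor that drives many of the genes above, was 8.10, 7.54, 7.94 and 7.25 in MT, 7.32, 7.88, 7.87 and 7.63 in KO and 7.34, 7.55, 7.37 and 7.13 in WT tumors. MT1 and MT3 were the highest and the ranges overlapped. KO minus WT was 0.33 ± 0.19 (adjusted p = 0.333, limma) and 0.66, 0.12 and -0.04 at its 3 other probe sets. Mki67, which encodes the Ki-67 antigen used to count cycling cells, was 9.30, 8.86, 9.00 and 9.56 in MT, 9.76, 9.79, 9.67 and 10.38 in KO and 10.33, 9.09, 10.34 and 9.52 in WT tumors. All MT tumors lay below all KO tumors, whereas WT1 and WT3 were level with the highest KO tumor. MT minus KO was -0.72 ± 0.29 (adjusted p = 0.454; -0.34 with MT4 alone), and KO minus WT was 0.08 ± 0.29 (adjusted p = 0.894).

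**Figure D5:**
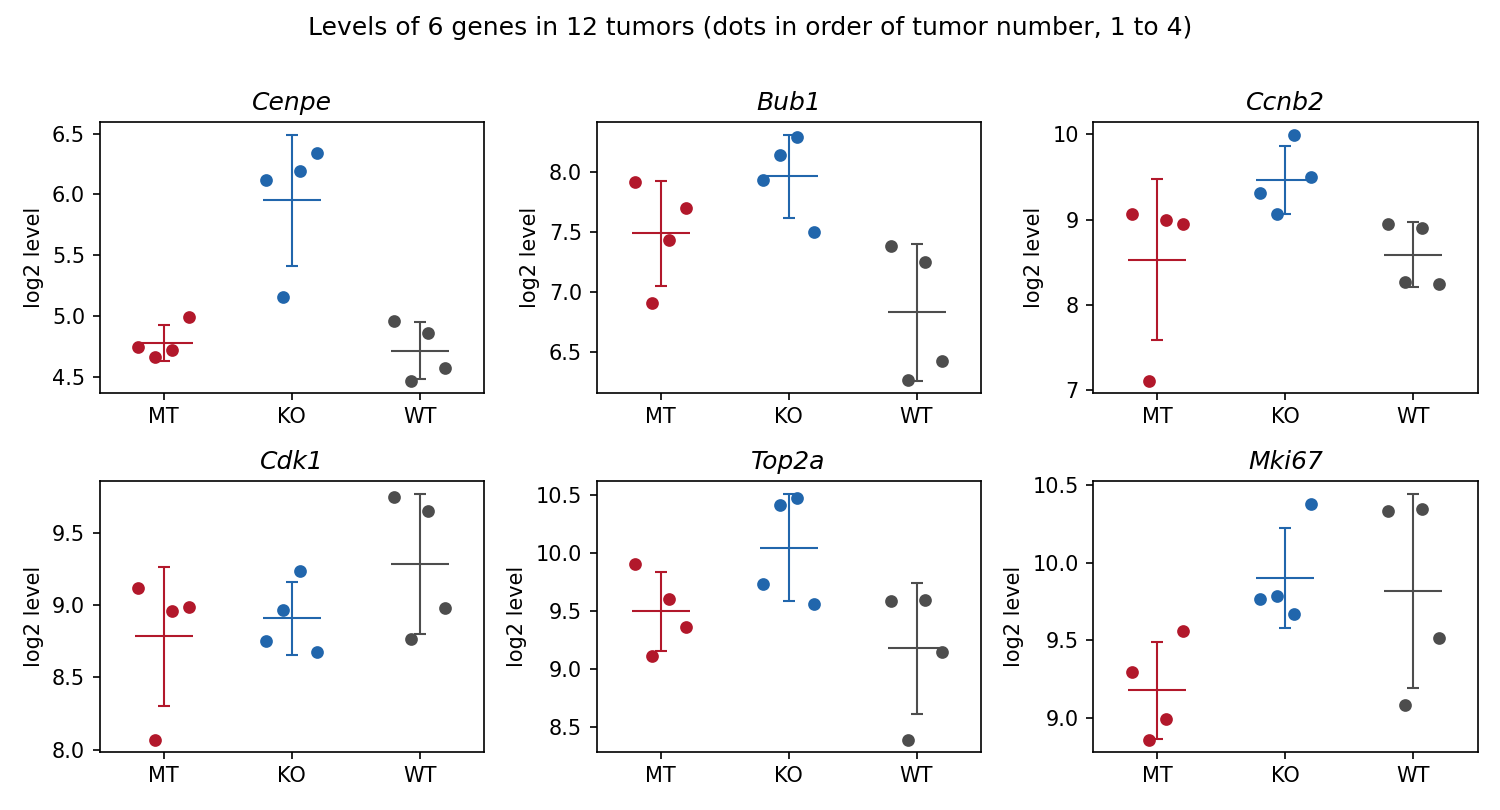
Log2 levels of Cenpe, Bub1, Ccnb2, Cdk1, Top2a and Mki67 (vertical axes, each with its own range) in the MT, KO and WT tumors (dots, in order of tumor number), with the mean and SD of each genotype (bar and whiskers, n = 4). KO tumors lie above WT tumors for Cenpe, Bub1 and Ccnb2, the ranges overlap for Cdk1, Top2a and Mki67, and MT2 lies apart from the other MT tumors for Ccnb2 and Cdk1.

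Several probe sets were present for 21 of the 41 genes. In KO minus WT the probe sets of a gene shared a sign in 14 and differed in 7, and in MT minus KO they shared it in 12 and differed in 9. Over all 77 probe sets 66 had a higher mean in KO than in WT and 63 a lower mean in MT than in KO, and 1 passed. The 8 genes represented by a probe set that may match other transcripts had higher means in KO than in WT in 8 of 8, as did 30 of the other 33 genes.

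Other genes of the same processes, from lists that hold none of the 44, are given for comparison. Of 18 other spindle and cytokinesis genes 15 had a higher mean in KO than in WT and Aspm passed. Aspm, which anchors spindle poles, was 6.93, 6.45, 6.62 and 7.03 in MT, 7.92, 7.34, 7.40 and 7.52 in KO and 7.03, 6.42, 6.89 and 6.57 in WT tumors, with all KO tumors above all others (KO minus WT 0.82 ± 0.18 SE, adjusted p = 0.0341, limma). Of 20 other kinetochore and centromere genes 17 had a higher mean in KO and Dsn1 passed. Dsn1, of the Mis12 complex, was 7.32, 6.86, 7.28 and 7.57 in MT, 7.29, 7.90, 7.88 and 7.46 in KO and 6.76, 6.14, 6.67 and 6.73 in WT tumors, so that MT and KO tumors both lay above all WT tumors (KO minus WT 1.06 ± 0.20, adjusted p = 0.0198; MT minus WT 0.68 ± 0.20, adjusted p = 0.123, 1.00 with MT4 alone).

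Of 12 other condensin and cohesin genes 10 had a higher mean in KO than in WT and Pds5a, a cohesin regulator, passed (0.53 ± 0.14, adjusted p = 0.048, limma). Of 10 mitotic entry regulators 7 did and Cdc25b, a phosphatase that activates Cdk1, passed (1.06 ± 0.27, adjusted p = 0.0483). Among 13 genes of the anaphase-promoting complex and its regulators 8 had a higher mean in KO and 5 a lower one. There Fzr1, the activator that takes over from Cdc20 at the end of mitosis, was lower in KO than in WT. It was 7.67, 7.36, 7.41 and 7.06 in MT, 6.84, 6.83, 7.06 and 6.48 in KO and 7.79, 7.50, 7.60 and 7.63 in WT tumors, with all KO below all WT tumors (KO minus WT -0.83 ± 0.15, adjusted p = 0.0183). Of 9 DREAM, MuvB and B-Myb genes 5 had a higher mean in KO and none passed.

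DNA replication genes, which act earlier in the cycle, were nearly balanced, with 13 of 22 higher in KO than in WT, a median difference of 0.08 and none passing. Their mean centered level was -0.46 to 0.70 in MT, -0.19 to 0.14 in KO and -0.52 to 0.28 in WT tumors, so the KO tumors did not lie above the MT tumors as they did for the mitotic genes. MT2 and WT2 were again the lowest of their genotypes, and MT1 was the highest of the 12.

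In MT against KO tumors these lists did not share a direction. A lower mean in MT was found for 16 of the 18 spindle and cytokinesis genes (median MT minus KO -0.30), 10 of the 12 condensin and cohesin genes (-0.21), 6 of the 10 mitotic entry regulators (-0.28) and 5 of the 9 DREAM, MuvB and B-Myb genes (-0.13). The kinetochore and centromere genes were split, with 10 higher and 10 lower (0.005). The mean was higher in MT for 11 of the 13 genes of the anaphase-promoting complex and its regulators (0.12) and for 13 of the 22 DNA replication genes (0.07). None of these genes passed limma's adjusted test, and 0 to 3 of each list were under an unadjusted p of 0.05.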

How the data were processed

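The deposited table holds log2 expression values of 22690 probe sets in 12 tumors. The study's methods state that the authors made log2 values from the intensity files with RMA in BRB-ArrayTools 3.5.0, while the submitters' notes name RMA and MAS5 and not which of them made this table. After 64 control probe sets were left out, 22626 were tested. The annotation gave a single symbol to 20380, several to 691 and none to 1555. Trp53 had no symbol there and was found through a supplementary list.

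A mean per genotype was fitted to the 12 tumors by lmFit and moderated by eBayes of limma 3.58.1 (R 4.3.3), which left 9 residual degrees of freedom. Tests were 2-sided, and p-values were adjusted after Benjamini and Hochberg over the 22626 probe sets with 0.05 as the limit. In simulated KO against WT data of the same size, the test found 57 of 100 probe sets moved by log2 1, 93 of 100 moved by log2 2, and 7 others. The moved probe sets were drawn at random from all 22626, with independent noise. The 41 genes had a larger median SD within genotypes (0.38 against 0.27), which would make these rates too high for them. The simulation moved 100 probe sets of each size, while 1035 passed in KO against WT in the data. The adjusted limit was therefore stricter in the simulation, which would make the rates too low. Which of these weighed more was not tested.

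The members, role groups, pathway lists and marker lists were chosen with earlier results of these data known. Members were named with values when called, when largest or smallest in KO minus WT within a role, and always for Mki67, Cdk1, Ccnb1, Top2a, Foxm1 and Cenpe. Other genes were named when called.

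Same-numbered tumors deviated together above a correlation of 0.1 in 6 of 12 pairs (0.0023 to 0.335). Tumors of different numbers were not compared in this way, so these values cannot show whether the numbers pair the tumors. The main fit did not use the numbers. Alternatives were cyclic loess, a filter keeping probe sets above the array median in at least 4 arrays (53.9% kept), a mean-variance trend with robust moderation, blocks for the tumor number and for the poly-A control level, 1 probe set per gene, fits to the 8 tumors compared, and each tumor left out. Precision is limited by the 4 arrays of each genotype. Figures were drawn with matplotlib 3.10.9.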

Additional observations from a re-analysis of the deposited data

Results flagged for a closer look

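For the named genes and the average over all 41 genes, 69 sets of 4 tumors of 1 genotype were searched for a tumor that stood far from the other 3, by the gap to its nearest neighbor as a share of the whole range. There were 5 such sets, and chance gives about 1 in 20. Ccnb2 and Cdk1 were low in MT2, at 7.11 and 8.07, where the other MT tumors were 8.95 to 9.06 and 8.96 to 9.12. Aurka was low in KO4, at 6.91 against 8.23 to 8.41 in the other KO tumors, while Mki67 was high in the same tumor, at 10.38 against 9.67 to 9.79. Nuf2 was high in KO1, at 8.01 against 6.89 to 7.06 in the other KO tumors.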

How the results depend on the processing

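The median difference over the 41 genes kept its sign in every alternative for MT against KO (-0.45 to -0.26, -0.26 being without MT2) and KO against WT (0.21 to 0.49), but not for MT against WT (-0.18 to 0.09). The members that passed in KO against WT numbered 1 in the main setting, 2 (Cenpe and Bub1) with the mean-variance trend and robust moderation, 3 with the replicate block (Cenpe, Bub1 and Ttk), 0 in the fit to 8 tumors, and 0 to 2 with a tumor left out, with 0 without WT3 or without KO3 and 2 without KO4. With dim probe sets left out the gene that passed was Bub1 and not Cenpe. In MT against KO 0 passed in the main setting and 0 to 1 with a tumor left out, Cenpe without KO2 and Rad21 without MT4, and in MT against WT 0 passed in all. The members without overlap between KO and WT, 7 with all tumors, were 14 without WT1. Over all 22626 probe sets, KO against WT had 1035 calls (438 higher, 597 lower in KO). Without dim probe sets there were 604 of 12197 tested (347 higher, 257 lower), and with 1 probe set per gene 557 of 12393 tested. The fit to 8 tumors gave 374 (204 higher, 170 lower). With a tumor left out there were 196 (without WT3) to 1360 (without WT4). The 83 calls of MT against WT became 142 with cyclic loess, 133 without dim probe sets, 19 with a block for the poly-A control level, 55 with 1 probe set per gene, 11 in the fit to 8 tumors, and 4 to 801 with a tumor left out, most without MT4. The 2 calls of MT against KO became 0 with the replicate block, 13 with a block for the poly-A control level, 0 with 1 probe set per gene, 0 in the fit to 8 tumors, and 2 to 235 with a tumor left out, most without MT4. Fits to 8 tumors or without a tumor use fewer samples. The filter on dim probe sets and the setting with 1 probe set per gene test fewer probe sets. Other causes of these changes were not tested. The block for the poly-A control level compares MT with other tumors through MT4 alone, so its calls are not counted. Without MT4, every MT tumor had high poly-A controls and every other tumor low ones. Genotype and that control level cannot be told apart in that setting. For the named members 885 of 893 differences under an alternative stayed on their side of the threshold. Only Cenpe in KO against WT had passed in the main setting, so this count says little about how stable the differences were. Their sign changed in 14 of 283 for KO against WT, 17 of 305 for MT against KO and 35 of 305 for MT against WT. Of the members' calls, the replicate block added Bub1 and Ttk in KO against WT, and in MT against KO it lost both calls of Trp53. With 4 arrays per genotype and a median SE of 0.25, differences well under 1 on the log2 scale were seldom able to pass.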

Other observations

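Marker lists that the comparison of KO with WT tumors above did not use showed further differences between tumors, given as values. Of 6 basal and myoepithelial genes 5 had a lower mean in KO than in WT and none passed. Of 6 fibroblast genes 3 were higher and 3 lower in KO, with the lowest mean centered level in WT2, -1.41. Of 5 B and plasma cell genes and 5 T and NK cell genes, all 10 had lower means in KO than in WT and none passed, with WT1 apart from the other tumors. Of 3 adipocyte genes 2 had a lower mean in KO, and all 4 skeletal muscle genes and both red cell genes had lower means in KO, with none passing. The skeletal muscle genes were highest in MT1, at 1.16.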
